A study of Mus musculus with 11 samples.

Results

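The Foxa family, Foxa1, Foxa2 and Foxa3, was examined in the open chromatin of mouse dopaminergic (DA) and serotonergic (5-HT) neurons at E14.5. The family makes up 3 of the 22225 protein-coding genes of the annotation, and its members were listed by name. Every open chromatin region that overlapped a gene body extended by 100 kb on each side was taken as part of that gene's locus. Foxa proteins are forkhead transcription factors that can bind their sites in closed chromatin and are therefore called pioneer factors. Foxa1 and Foxa2 are made by the floor plate, the ventral midline of the neural tube, under the control of Shh signalling, and in the midbrain they act in DA progenitors and in the neurons that arise from them. Foxa3 is best known from endoderm derivatives such as the liver.

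ATAC-seq, in which a transposase inserts adapters into accessible DNA, was available for 3 DA libraries and 2 5-HT libraries. DA neurons were GFP+ cells from ventral mesencephalons of TH-GFP embryos, in which the Th promoter drives GFP, and 5-HT neurons were YFP+ cells from hindbrain rhombomeres of Mash1-CRE x ROSA YFP embryos, in which YFP marks cells with a history of Mash1-driven Cre. For both groups, transgenic males had been mated with Swiss wild-type females, tissue from several embryos was pooled for each sort, and each library came from an independent sort of untreated E14.5 embryos. The methods give fewer sorted cells for the 5-HT libraries, and the groups also differ in brain region and transgene, so these differences cannot be told apart from cell type. Another 6 samples of the series, profiled by RNA-seq, were not analysed here, and a peak at a promoter is no measure of expression.

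The data list the same 131942 regions of the mm9 genome (NCBIM37) for each library, with a score at each region and a score of 0 where the library had no peak. In the order of the replicate numbers, which is kept below, the DA libraries had a peak in 52861, 93055 and 94351 regions and the 5-HT libraries in 38772 and 22879 regions. Every 5-HT library thus had fewer peaks than every DA library, and how deeply they were sequenced is unknown. Because no source names the unit of the score, it was turned into a percentile, the rank of a score among the peaks of its own library, where 100 is the highest score and 0 stands for no peak. Scores and their sums are also given as found in the data, without scaling between libraries. A region was DA-only when it had a peak in all 3 DA libraries and in no 5-HT library, 5-HT-only in the converse case, and common when it had a peak in all 5. In sorted populations, fewer cells of a type and less accessible chromatin per cell cannot be told apart. With 3 libraries against 2, the two-sided exact permutation test cannot go below p = 0.1.

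The labels were checked at marker promoters, which were taken to start 1 kb before a TSS and to end 100 bp after it. All 10 DA markers had a promoter peak in each DA library, against 7 and 6 of them in the 5-HT libraries. The summed score over these promoters was 72.9, 79.6 and 69.6 in the DA libraries and 30.9 and 20.0 in the 5-HT libraries. Over all protein-coding genes, DA libraries had a peak at 13265, 14166 and 13762 promoters and 5-HT libraries at 12909 and 10971. The summed scores were 113432, 146181 and 124853 against 79817 and 53790. Lower sums in 5-HT libraries were thus not particular to the markers, but in proportion the sums over DA markers were lower still. The promoter of Th, the rate-limiting enzyme of dopamine synthesis, was DA-only, with scores of 9.91, 10.6 and 8.45. The 8 markers of 5-HT neurons did not set the 5-HT libraries apart, as 6, 7 and 6 of them had a promoter peak in DA libraries and 5 and 3 in 5-HT libraries. Their summed scores were 36.0, 39.0 and 34.6 in DA libraries and 24.2 and 14.1 in 5-HT libraries. The promoter of Tph2, the enzyme that starts serotonin synthesis in the brain, was common, with scores of 9.91, 7.59 and 11.1 in DA and 7.09 and 3.59 in 5-HT libraries. The region at the promoter of the serotonin transporter Slc6a4 was DA-only, with scores of 4.80, 6.56 and 3.76. The promoter of Fev, a transcription factor of the 5-HT lineage, had a peak in 5-HT replicate 1 alone, at 3.37, the lowest score of that library. That of Gata2 had a peak in 5-HT replicate 1, at a percentile of 41.7, and in DA replicate 2, at 4.20. That of Gata3 was common, at percentiles of 73.6, 51.5 and 61.7 in DA and 65.1 and 95.5 in 5-HT libraries, with its highest score, 7.51, in 5-HT replicate 2. The promoters of Htr1a, Maob and Lmx1b, which is in both marker sets, had a peak in every DA library and in at most 1 5-HT library. The markers of 5-HT neurons thus pointed in both directions at their promoters. As a peak is no measure of expression and RNA was not analysed here, these values do not test the identity of the sorted cells, and the groups are named as labelled.

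The Foxa1 locus held 32 regions, the Foxa2 locus 26 and the Foxa3 locus 28. The median over all protein-coding genes was 14, and 5.08%, 10.6% and 8.15% of genes had as many regions as Foxa1, Foxa2 and Foxa3 or more. Around Foxa1, DA libraries had a peak in 15, 30 and 21 regions and 5-HT libraries in 6 and 4. Every DA library was above every 5-HT library, and the means of 22 ± 7.55 (SD, n = 3) and 5.0 ± 1.41 (SD, n = 2) differed by 17 regions (exact permutation test, p = 0.2). Around Foxa2 the numbers were 15, 26 and 17 in DA libraries and 10 and 4 in 5-HT libraries, again without overlap of the groups. The means of 19.3 ± 5.86 (SD, n = 3) and 7.0 ± 4.24 (SD, n = 2) differed by 12.3 (exact permutation test, p = 0.1). Around Foxa3 they were 18, 26 and 23 in DA libraries and 18 and 8 in 5-HT libraries, so that DA replicate 1 and 5-HT replicate 1 had the same number. The means of 22.3 ± 4.04 (SD, n = 3) and 13.0 ± 7.07 (SD, n = 2) differed by 9.33 (exact permutation test, p = 0.3), and by 14.3 without 5-HT replicate 1 and 4.33 without 5-HT replicate 2. Groups that did not overlap in this direction were seen at 59.1% of all protein-coding loci with a region, so the pattern at Foxa1 and Foxa2 was also that of most loci. At the median locus, DA libraries had a peak in 7, 11 and 9 regions and 5-HT libraries in 5 and 4. Within 20 kb instead of 100 kb, the groups met at Foxa2 and did not overlap at Foxa1 and Foxa3.

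To set aside the unequal numbers of peaks, only the 22879 highest scores of each library were kept, as many as 5-HT replicate 2 has peaks. The median locus then had 4 regions with a peak in each of the 5 libraries. Foxa1 had 6, 7 and 7 in DA libraries and 2 and 4 in 5-HT libraries, a difference of 3.67 (exact permutation test, p = 0.1). Foxa2 had 7, 10 and 8 against 5 and 4, a difference of 3.83 (exact permutation test, p = 0.1). The groups did not overlap at either gene, a pattern found in this direction at 9.77% of loci and in the opposite direction at 7.88%. These shares, like that for all peaks, are over loci of all sizes. The share among loci with as many regions as Foxa1 or Foxa2 was not computed. Foxa3 had 11, 10 and 11 against 12 and 8, with overlapping groups and a difference of 0.667 (exact permutation test, p = 0.8).

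**Figure D1:**
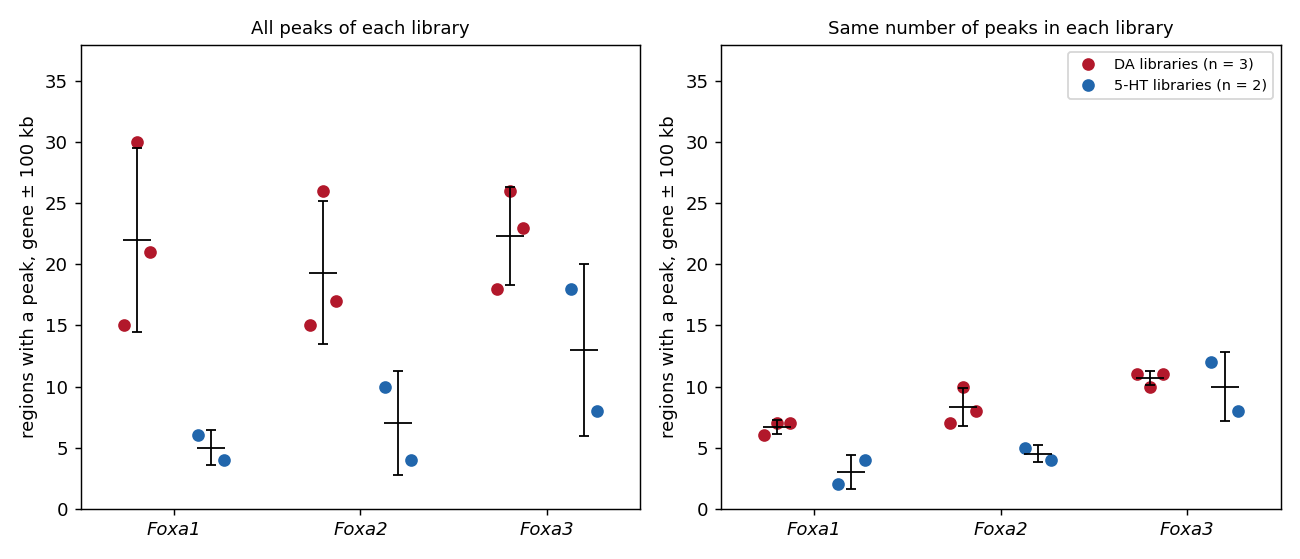
Number of open chromatin regions with a peak within 100 kb of each gene, for all peaks (left) and for the 22879 highest-scoring peaks of each library (right). Points are libraries, and horizontal marks with error bars are the mean and SD of 3 DA and 2 5-HT libraries. DA libraries lie above 5-HT libraries at Foxa1 and Foxa2 in both panels, whereas at Foxa3 the groups meet or overlap.

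The peaks differed in which libraries shared them. Of the 32 regions around Foxa1, 3 were common, 9 were DA-only, 3 were present in the 3 DA libraries and 5-HT replicate 1, and 16 in 1 or 2 DA libraries, 10 of which had a peak in DA replicate 2 alone. The remaining region, in an exon of Mipol1 at chr12:58567754-58568090, had a peak in 5-HT replicate 2 alone, at a score of 3.61, and it was the 1 region of the 3 loci with a peak in a 5-HT library and in no DA library. Of the 26 regions around Foxa2, 3 were common, 4 DA-only, 8 present in the 3 DA libraries and 1 5-HT library, and 11 in 1 or 2 DA libraries. Of the 28 around Foxa3, 8 were common, 2 DA-only, 8 present in the 3 DA libraries and 5-HT replicate 1, 8 in 1 or 2 DA libraries, and 2 in other combinations. A peak in DA replicate 2 alone was found at 9 of the regions around Foxa2 and at 4 of those around Foxa3. With all peaks, no region of the 3 loci was 5-HT-only, and over all regions this class made up 0.389%. Regions with a peak in 1 5-HT library and in no DA library made up 4.71% of all regions. Common regions made up 12.8% of all regions, those in the 3 DA libraries and 1 5-HT library 8.49%, and those in 1 or 2 DA libraries 54.2%. The Foxa3 locus, with 8 common regions, lay above 91.5% of genes in this count, and the Foxa1 and Foxa2 loci with 3 each were at the median of 3.

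DA-only regions accounted for 28.1% of the regions around Foxa1 (9 of 32, 95% Wilson interval 15.6 to 45.4%), 15.4% around Foxa2 (4 of 26, 6.15 to 33.5%) and 7.14% around Foxa3 (2 of 28, 1.98 to 22.6%). Among all regions, 13.4% were DA-only. The intervals cover counting error only, and they overlap between the 3 genes. A locus had a median of 1 DA-only region over all genes. The count at Foxa1 was reached or exceeded by 1.18% of genes, that at Foxa2 by 15.6% and that at Foxa3 by 45.6%. Among the 15698 loci with at least 10 regions, the median share was 10.7%, and the share at Foxa1 lay above that of 94.7% of loci, at Foxa2 above 65.2% and at Foxa3 above 30.0%. All DA-only regions of the family were distal, that is, outside the promoter of the member, and none touched the promoter of another gene. Of all regions away from promoters 14.6% were DA-only, and of all regions at a promoter 5.51%. With the same number of peaks per library, 3, 2 and 1 regions were DA-only around Foxa1, Foxa2 and Foxa3, against 2.14% of all regions. In this setting 1 region was 5-HT-only, the common region over the Foxa1 gene body at chr12:58642910-58645534, against 1.79% of all regions. The counts also moved with single libraries. Without DA replicate 1, 14 regions were DA-only around Foxa1 and 4 around Foxa3. Without 5-HT replicate 1, the numbers were 11 around Foxa2 and 10 around Foxa3.

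**Figure D2:**
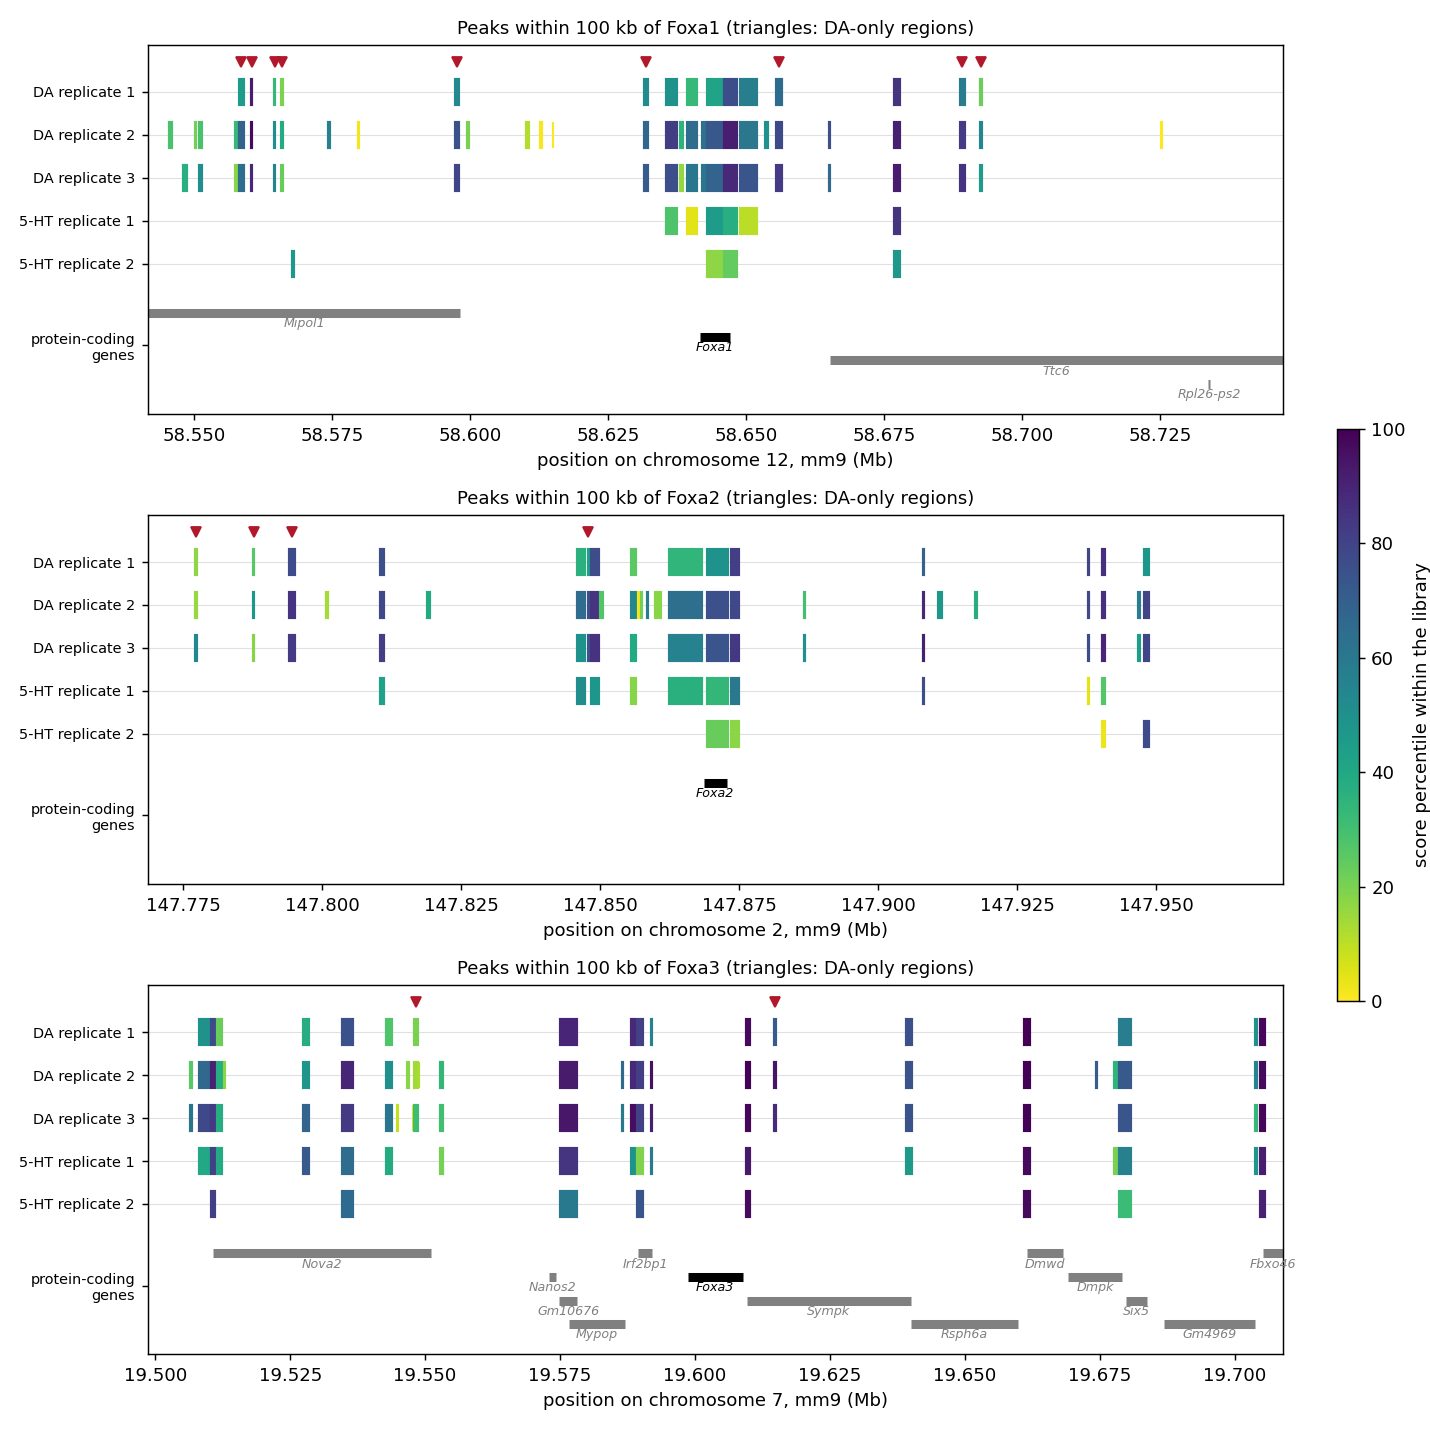
Map of the 3 loci in mm9 coordinates (Mb), with a lane for each library and the protein-coding genes below. Each bar is a region with a peak, shaded by its score percentile within the library, and triangles mark the 9, 4 and 2 DA-only regions around Foxa1, Foxa2 and Foxa3. The neighbours of Foxa1 and Foxa2 are few, whereas Foxa3 lies among 12 other protein-coding genes, many with a peak at their own start.

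Foxa1 (ENSMUSG00000035451.6) lies on the minus strand at chr12:58641618-58647108, between Mipol1 and Ttc6. Its promoter lay in a region of 2450 bp, chr12:58645880-58648329, which covers the TSS and the first part of the gene. This promoter region scored 7.36, 10.6 and 8.34 in the DA libraries and 4.07 and 3.18 in the 5-HT libraries. As percentiles, these were 76.8, 91.5 and 88.9 in DA and 37.4 and 23.9 in 5-HT libraries. All 3 DA values lay above both 5-HT values, by 55.1 percentile points on average (exact permutation test, p = 0.1). A further common region, chr12:58642910-58645534, covered 2625 bp of the gene body, at percentiles of 42.0, 72.9 and 68.0 in DA and 44.9 and 17.1 in 5-HT libraries. Here the groups overlapped, as 5-HT replicate 1 lay above DA replicate 1, and with the same number of peaks per library both 5-HT libraries and no DA library kept a peak. Of the regions outside the promoter, those with the highest mean percentile in DA libraries were a DA-only region in an intron of Mipol1, the common region at a start of Ttc6 and a DA-only region in an exon of the noncoding gene 4921518K17Rik.

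The region in the Mipol1 intron, chr12:58560358-58560564, spans 207 bp and lies 86.6 kb downstream of the Foxa1 TSS. Its scores were 10.4, 14.5 and 8.36 in the DA libraries, at percentiles of 91.9, 96.9 and 89.0, and both 5-HT libraries had no peak. It remained DA-only with the same number of peaks per library. It exceeded the Foxa1 promoter in score in each DA library. Near it, 3 further DA-only regions lay in introns of Mipol1, at chr12:58558037-58559000 with percentiles of 45.1, 69.1 and 64.8, at chr12:58564492-58564651 with 33.1, 50.8 and 54.9, and at chr12:58565750-58566042 with 19.9, 39.0 and 23.3. Another DA-only region, chr12:58597268-58598015, lay in an exon of Mipol1, with percentiles of 53.1, 75.4 and 79.3. Between Mipol1 and Foxa1, the DA-only region chr12:58631418-58632211 lay 15.3 kb downstream of the Foxa1 TSS, at percentiles of 52.3, 67.5 and 71.8. Upstream, chr12:58655375-58656532 lay 8.85 kb from the TSS and had percentiles of 65.3, 78.0 and 82.6 in the DA libraries, and it was also DA-only with the same number of peaks. The same held for chr12:58688733-58689559 in 4921518K17Rik, 42.0 kb upstream, with percentiles of 58.4, 82.7 and 85.5. The last DA-only region, chr12:58692397-58692766, 45.5 kb upstream in introns of 4921518K17Rik and Ttc6, had percentiles of 22.4, 54.1 and 45.6. The common region at a start of Ttc6, chr12:58676806-58677745, had percentiles of 84.6, 91.1 and 92.1 in DA libraries and 84.4 and 46.6 in 5-HT libraries. Unlike at the Foxa1 promoter, 5-HT replicate 1 lay close to DA replicate 1 there.

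Foxa2 (ENSMUSG00000037025.5), on the minus strand at chr2:147868613-147872705, had no other protein-coding gene within 100 kb. Its downstream side is covered by the noncoding gene 9030622O22Rik. A region of 3852 bp, chr2:147869115-147872966, covered 4 annotated TSSs and almost the whole gene. Its scores were 5.06, 6.74 and 5.75 in DA libraries and 3.97 and 3.17 in 5-HT libraries, at percentiles of 49.0, 75.7 and 73.8 in DA and 33.6 and 23.1 in 5-HT libraries. The DA values lay above the 5-HT values, by 37.8 points on average (exact permutation test, p = 0.2). With the same number of peaks per library, the groups overlapped and the mean difference was -11.1 (exact permutation test, p = 0.4). In that setting only DA replicate 2, at a percentile of 1.31, and 5-HT replicate 2, at 23.1, kept a peak there. A second promoter region, chr2:147873530-147874999, lay just upstream of the first, with scores of 8.06, 7.13 and 7.24 in DA libraries and 4.88 and 3.09 in 5-HT libraries. Its percentiles of 81.7, 78.3 and 84.0 in DA and 59.9 and 17.5 in 5-HT libraries differed by 42.6 points on average (exact permutation test, p = 0.1). This region was common also with the same number of peaks.

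Away from the Foxa2 promoter, the highest mean percentiles in DA libraries were found at 3 regions that were not DA-only. The common region chr2:147940248-147940838, in an intergenic locus 67.8 kb upstream, had percentiles of 86.3, 86.5 and 89.5 in DA libraries and 26.7 and 3.09 in 5-HT libraries. The region chr2:147908096-147908298, 35.5 kb upstream, had 69.5, 89.0 and 91.4 in DA libraries and 76.2 in 5-HT replicate 1, so that this 5-HT library lay above DA replicate 1. The region chr2:147848355-147849814, 23.6 kb downstream in an intron of 9030622O22Rik, had 77.1, 84.8 and 85.9 in DA libraries and 47.5 in 5-HT replicate 1. Neither of the last 2 had a peak in 5-HT replicate 2. All 4 DA-only regions of the locus lay in introns of 9030622O22Rik. The strongest of them, chr2:147793962-147795005, lay 78.2 kb downstream of the Foxa2 TSS, with percentiles of 77.5, 84.9 and 82.5, and was DA-only with the same number of peaks too. Next came chr2:147847708-147847950, 24.9 kb downstream, with percentiles of 43.4, 76.2 and 73.2. The others, chr2:147787465-147787795 with 26.0, 47.4 and 18.3 and chr2:147777064-147777475 with 17.1, 15.5 and 53.3, had lower mean percentiles. A region of 5838 bp over TSSs of 9030622O22Rik, chr2:147862437-147868274, the widest of the 3 loci, had percentiles of 34.4, 64.0 and 56.0 in DA libraries and 36.5 in 5-HT replicate 1. Regions over 2 kb made up 1.75% of all regions, and there were 3, 2 and 3 of them around Foxa1, Foxa2 and Foxa3.

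Foxa3 (ENSMUSG00000040891.5), on the minus strand at chr7:19598631-19608887, had no region over its gene body, as was the case for 26.8% of protein-coding genes. No region covered its TSS either. Sympk, the oppositely oriented neighbour, encodes symplekin, a scaffold of mRNA 3′ end processing. The region that reached into the Foxa3 promoter, chr7:19609441-19610258, covers the most upstream TSSs of Sympk, so its values cannot be assigned to Foxa3. Its scores were 13.7, 21.0 and 14.6 in DA libraries and 8.26 and 8.33 in 5-HT libraries. The percentiles of 97.3, 99.3 and 98.2 in DA and 93.6 and 97.2 in 5-HT libraries differed by 2.87 points on average (exact permutation test, p = 0.1), or by 1.03 points without 5-HT replicate 1 and 4.71 without 5-HT replicate 2, and this was the member promoter region with the highest percentile in each of the 5 libraries. The strongest distal regions in DA libraries were common regions at the starts of other genes. At Dmwd, chr7:19660925-19662166 had percentiles of 99.7, 99.3 and 99.6 in DA and 97.7 and 97.5 in 5-HT libraries. At Fbxo46 and Gm4969, chr7:19704650-19705647 had 98.1, 97.5 and 98.3 in DA and 92.1 and 91.0 in 5-HT libraries. At Gm10676 and Mypop, chr7:19575066-19578112 had 89.6, 92.7 and 94.0 in DA and 84.4 and 59.5 in 5-HT libraries. Both groups had peaks at these starts, with 5-HT replicate 2 at Gm10676 and Mypop the lowest of the values.

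The DA-only region nearest to Foxa3, chr7:19614733-19614981, lay in an intron of Sympk, 5.97 kb upstream of the Foxa3 TSS. Its percentiles were 71.7, 94.9 and 87.8 in the DA libraries, and it was DA-only with the same number of peaks as well. The other, chr7:19547965-19548757, lay over exons of Nova2 and of the lincRNA gene Gm17370, 60.5 kb downstream, and had percentiles of 20.0, 14.0 and 31.1. Of the 27 distal regions in the Foxa3 locus, 12 touched the promoter of another gene and 15 did not. The corresponding numbers were 3 and 28 around Foxa1, and 1 and 23 around Foxa2. No region of the Foxa3 locus had the Foxa3 TSS as its nearest protein-coding TSS, against 27 of 32 for Foxa1 and 26 of 26 for Foxa2.

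The median DA minus 5-HT difference in promoter percentile was 13.0 points over the 10723 protein-coding genes with a common promoter region. The difference at Foxa1 exceeded that of 99.6% of these genes, the difference at Foxa2 that of 92.9% and the difference at the Foxa3 promoter region that of 16.9%. At 53.1% of the 14499 genes with a promoter region, every DA percentile lay above every 5-HT percentile. With all peaks it did so at the promoter regions of all 3 members, that of Foxa3 being shared with Sympk. The absence of overlap alone thus did not set them apart. Averaged over the 5 libraries, the percentile of the Foxa1 promoter was above that of 38.7% of these genes, Foxa2 above 27.0% and the region shared by Foxa3 and Sympk above 93.2%. Ranked within each library among all promoter regions, those without a peak in that library included, Foxa1 stood at 60.1, 68.1 and 64.2 in DA and 33.3 and 43.6 in 5-HT libraries. Promoter regions without a peak rank below every peak, so peaks stand higher on this scale in a library with fewer promoter peaks. On this scale Foxa2 stood at 35.7, 41.4 and 41.2 in DA and 31.4 and 43.2 in 5-HT libraries, where 5-HT replicate 2 was the highest of the 5. The same held for the Foxa3 promoter region, at 92.7, 96.5 and 91.2 in DA and 89.4 and 96.6 in 5-HT libraries. The DA minus 5-HT differences on this scale were 25.7 points for Foxa1 (exact permutation test, p = 0.1), 2.14 for Foxa2 (exact permutation test, p = 0.7) and 0.484 for Foxa3 (exact permutation test, p = 1). With the same number of peaks per library, the groups overlapped at Foxa3 too, with a difference of 1.34 points (exact permutation test, p = 0.9).

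**Figure D3:**
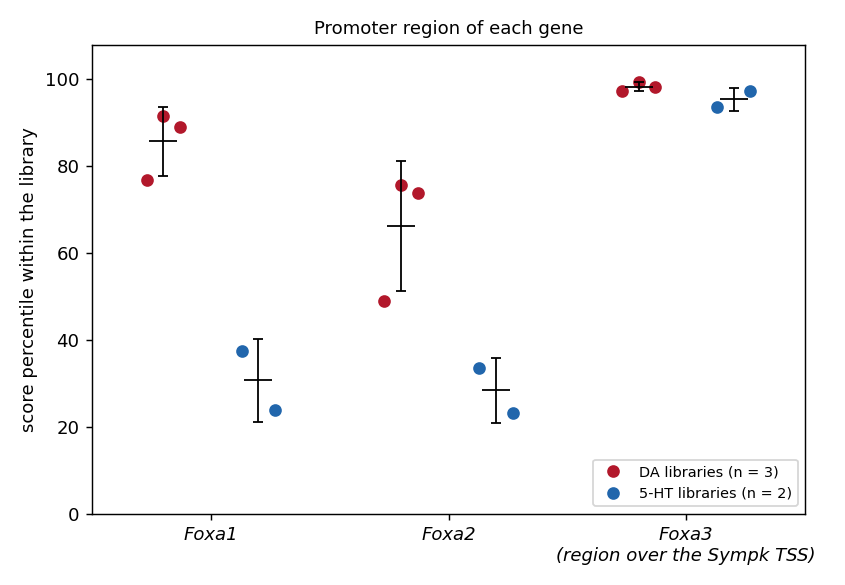
Score percentile of the promoter region of each gene within its library, for 3 DA and 2 5-HT libraries, with the mean and SD. The region for Foxa3 covers the most upstream TSSs of Sympk. DA values lie above 5-HT values at each gene, with mean differences of 55.1, 37.8 and 2.87 points. With the same number of peaks per library, the groups overlap at Foxa2 and Foxa3, and the mean difference at Foxa2 turns negative.

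The promoters most like that of Foxa1 over the 5 libraries, by the mean absolute difference in percentile, were those of Ssna1 and Anapc2, which share a region and differed by 2.86 points, followed by Thoc3, Abca14 and Rad51l1, at up to 3.73 points. For Foxa2, they were Gpi1, at 1.69 points, Pick1, Lrrtm2, 6430573F11Rik and Tmem28, at up to 3.28 points. For Foxa3, Sympk came first because the region is the same, followed by Ranbp3, Fam73b, 2510012J08Rik and Uso1, at 0.394 to 0.544 points.

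The paralogues were compared within each library, where an exact sign-flip permutation test over 5 libraries cannot go below p = 0.0625. In regions with a peak, Foxa1 minus Foxa2 gave 0, 4 and 4 in DA libraries and -4 and 0 in 5-HT libraries, a mean difference of 0.8 (exact sign-flip permutation test, p = 1). This difference was 0 without DA replicate 2 and 0 without DA replicate 3, 2.0 without 5-HT replicate 1, -0.2 without regions at promoters of other genes and -1.6 with the same number of peaks. Foxa1 minus Foxa3 gave -3, 4 and -2 in DA and -12 and -4 in 5-HT libraries, a mean of -3.4 (exact sign-flip permutation test, p = 0.3125). Foxa2 minus Foxa3 gave -3, 0 and -6 in DA and -8 and -4 in 5-HT libraries, a mean of -4.2 (exact sign-flip permutation test, p = 0.125). Foxa1 minus Foxa3 was -1.25 without 5-HT replicate 1 and -5.25 without DA replicate 2. The order turned when regions at promoters of other genes were left out. Foxa1 then had a peak in 14, 27 and 18 regions in DA libraries and 5 and 3 in 5-HT libraries, Foxa2 14, 25 and 16 against 9 and 4, and Foxa3 7, 13 and 11 against 6 and 1. Foxa2 now exceeded Foxa3 in 5 of 5 libraries, by 6.0 regions on average (exact sign-flip permutation test, p = 0.0625), and Foxa1 exceeded Foxa3 in 4 of 5, by 5.8 (exact sign-flip permutation test, p = 0.125). The smallest p was reached in both directions. With the same number of peaks, Foxa1 was below Foxa3 in 5 of 5 libraries, by 5.2 regions on average (exact sign-flip permutation test, p = 0.0625), and with the upper 50% of scores Foxa2 was below Foxa3 by 4.6 (exact sign-flip permutation test, p = 0.0625). Assignment to the nearest protein-coding TSS put Foxa1 below Foxa2 by 13.4 (exact sign-flip permutation test, p = 0.0625) and left no region for Foxa3, so the differences of 12.4 for Foxa1 and 25.8 for Foxa2 from Foxa3 are their own means, for which a test says nothing.

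The summed width of the regions with a peak gave a similar order of groups. Region coordinates are the same in every library, so this sum weights the counts above by region width and is no separate measure. Around Foxa1, regions with a peak covered 18.2, 23.9 and 21.0 kb in DA libraries and 12.6 and 6.35 kb in 5-HT libraries. Around Foxa2 they covered 20.0, 24.4 and 20.5 kb against 17.0 and 6.84 kb. Around Foxa3 they covered 20.9, 23.4 and 22.3 kb against 20.9 and 12.6 kb, so that 5-HT replicate 1 matched DA replicate 1 there.

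Sequence was examined because Foxa proteins recognise forkhead words, and the Shh pathway, which acts on Foxa2 through GLI factors, has words of its own. Each word was searched, on either strand, in a window of 200 bp at the centre of every region. The forkhead word TGTTTAC was found in 3.83% of all regions, and in 2 regions around Foxa1, 2 around Foxa2 and 0 around Foxa3. The word TATTTAC was found in 3.11% of all regions and in 1, 0 and 2 regions of the 3 loci. The word TGTTTGC was found in 6.33% of all regions and in 3, 5 and 0, and the word TATTTGC in 3.34% and in 3, 3 and 0. At least 1 of these words was present in 7 of 32 regions around Foxa1 (21.9%), 9 of 26 around Foxa2 (34.6%) and 2 of 28 around Foxa3 (7.14%), beside 15.4% of all regions and 22.1% of all DA-only regions. Among the DA-only regions of the family, 3 of 9 around Foxa1, 3 of 4 around Foxa2 and 0 of 2 around Foxa3 held such a word. The GLI words GACCACCCA, found in this window in 0.142% of all regions, and GAACACCCA, found in 0.174%, were in no window of the 3 loci. Words this rare are seldom met in so few windows, and wider regions were not searched beyond the window for this count. No conclusion is drawn from their absence. The homeodomain word TAATTA, found in 6.38% of all regions, was in 2, 2 and 3 regions, and the OTX word TAATCC, found in 7.11%, in 0, 2 and 0. The NR4A word AAAGGTCA, found in 1.88% of all regions, was in none. These matches describe letters in a window and do not show binding.

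Base composition differed between the loci. The median GC content was 44.0% over the regions around Foxa1, 49.0% around Foxa2 and 57.0% around Foxa3, beside 49.0% over all regions. Over promoters as defined above, at the outermost TSS, the ratio of observed to expected CpG was 0.657 at Foxa1, 0.439 at Foxa2 and 0.764 at Foxa3, beside a median of 0.401 over all protein-coding genes. The ratio at Foxa3 was above that of 89.9% of genes, but this stretch also holds TSSs of Sympk, whose promoter had a ratio of 0.732, so it cannot be assigned to Foxa3.

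The following stretches of mm9 are shown as examples of the distal regions described above and, for the promoters, to set a start with a peak beside one without, with each occurrence of the words above in capitals. The first is the DA-only region of the family with the highest mean percentile in DA libraries, the Mipol1 intron region chr12:58560358-58560564 on the plus strand, which holds none of the words. The second, its DA-only neighbour chr12:58564492-58564651 on the plus strand, holds TGTTTGC on each strand. The third, chr2:147908096-147908298 on the plus strand, 35.5 kb upstream of Foxa2 in an intergenic locus, is not DA-only and holds 1 TGTTTGC. The last 2 are the 250 bases before the TSS on the minus strand, at chr2:147872706-147872955 for Foxa2 and chr7:19608888-19609137 for Foxa3. No word was found in either. The Foxa2 stretch lies within the promoter region described above, and the Foxa3 stretch lies in no region. Read in the same way but not printed, the DA-only regions chr2:147847708-147847950 around Foxa2 and chr7:19614733-19614981 around Foxa3 held none of the words.
Foxa1 locus, Mipol1 intron, DA-only, highest scores: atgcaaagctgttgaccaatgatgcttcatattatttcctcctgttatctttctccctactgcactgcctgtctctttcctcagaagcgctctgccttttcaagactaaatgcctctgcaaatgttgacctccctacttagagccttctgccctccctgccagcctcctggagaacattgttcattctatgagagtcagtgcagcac
Foxa1 locus, Mipol1 intron, DA-only, neighbour: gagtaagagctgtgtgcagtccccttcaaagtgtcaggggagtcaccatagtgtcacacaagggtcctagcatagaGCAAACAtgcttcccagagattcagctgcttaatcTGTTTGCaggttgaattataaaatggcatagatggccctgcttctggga
Foxa2 locus, intergenic, upstream: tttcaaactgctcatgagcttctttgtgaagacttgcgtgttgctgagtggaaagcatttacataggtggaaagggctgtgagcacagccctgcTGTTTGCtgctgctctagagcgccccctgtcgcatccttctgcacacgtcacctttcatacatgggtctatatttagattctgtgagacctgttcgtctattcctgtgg
Foxa2 before the TSS: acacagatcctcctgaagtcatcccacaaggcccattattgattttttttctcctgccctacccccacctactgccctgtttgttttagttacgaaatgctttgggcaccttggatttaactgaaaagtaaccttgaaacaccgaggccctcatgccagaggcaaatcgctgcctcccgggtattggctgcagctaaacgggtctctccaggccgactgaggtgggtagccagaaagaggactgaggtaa
Foxa3 before the TSS: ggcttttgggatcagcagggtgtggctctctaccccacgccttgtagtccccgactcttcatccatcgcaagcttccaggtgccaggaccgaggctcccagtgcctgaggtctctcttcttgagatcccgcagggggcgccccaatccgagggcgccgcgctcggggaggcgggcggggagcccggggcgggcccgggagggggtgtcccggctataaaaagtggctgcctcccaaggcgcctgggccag

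The family was set beside 31 determinants of the floor plate and of midbrain DA neurons, which include regulators upstream of Foxa genes, their partners and their targets. All 31 were matched to the annotation. Of their promoters, 17 were common, 9 were present in the 3 DA libraries and 1 5-HT library, 3 were DA-only, 1 had another combination and 1, that of Msx2, had no region. Over all 22225 protein-coding genes, 48.2% of promoters were common, 8.50% present in the 3 DA libraries and 1 5-HT library, 2.03% DA-only and 34.8% without a region. The DA-only promoters of the list were those of Th, of Lmx1a, a LIM homeodomain factor of DA progenitors, and of Aldh1a1, a retinaldehyde dehydrogenase of a subset of DA neurons. The Lmx1a promoter had percentiles of 47.8, 66.4 and 51.8 in the DA libraries, and that of Aldh1a1 had 32.9, 57.1 and 75.1. The promoter of Shh, the signal that induces Foxa2 in the floor plate, was common like those of Foxa1 and Foxa2 and the region shared by Foxa3 and Sympk. The Shh promoter had percentiles of 65.1, 90.4 and 87.8 in DA and 67.7 and 23.2 in 5-HT libraries, where 5-HT replicate 1 lay above DA replicate 1. The list had a median of 23 regions and 4 DA-only regions per locus, beside 14 and 1 over all genes. Foxa1, with 9 DA-only regions, lay above this median, Foxa2 at it and Foxa3 below it. The count at Foxa1 was not particular to it, as Slit1 had 13, Lmx1a 11, En1 and Gli2 10 each, and Msx1 and Otx2 9 each. The other listed genes had fewer than Foxa1.

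Of 42 symbols listed for other forkhead genes, 40 were matched to the annotation. Foxl1 was not, and Foxf1 was counted once, under its older symbol Foxf1a. Their promoters were common in 18 cases, present in the 3 DA libraries and 1 5-HT library in 5, present in 1 or 2 DA libraries in 3, of another combination in 1 and without a region in 13. None was DA-only, a class of 2.03% over all genes. Their loci had a median of 17 regions and 2 DA-only regions.

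Markers of other cell types were read at their promoters in the same way. All 6 markers of radial glia and floor plate progenitors had a peak in each DA library, and 6 and 4 in the 5-HT libraries, with summed scores of 31.3, 33.4 and 32.5 in DA and 27.4 and 13.2 in 5-HT libraries. The highest of these scores was that of Shh, at 10.1 in DA replicate 2. GABAergic markers had summed scores of 9.87, 12.6 and 12.1 in DA and 13.3 and 6.60 in 5-HT libraries, with a peak at 2, 3 and 3 and at 3 and 2 of 3 promoters. Of the 2 glutamatergic markers, Slc17a6 had scores of 9.97, 12.9 and 12.8 in DA libraries, 3.65 in 5-HT replicate 1 and no peak in 5-HT replicate 2, and Slc17a7 had no region. Of 3 endothelial markers, Cldn5 and Kdr had a peak in every DA library and in 5-HT replicate 1, and Pecam1 had no region. Both pericyte markers had a peak in DA replicate 2 and 1 of them in DA replicate 3, and none in the other libraries. The 3 microglial markers Csf1r, Cx3cr1 and Aif1 had no region. Among 4 endodermal markers, Alb and Afp had no region, Ttr had a peak in DA replicate 3 alone, and Sox17 had scores of 0, 3.49 and 3.63 in DA and 3.96 and 3.47 in 5-HT libraries. The part of other cell types in the differences at the Foxa loci was not tested.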

How the data were processed

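ATAC-seq peaks of 3 DA and 2 5-HT libraries were analysed. Per the study's methods and the submitters' processing notes, the authors used Trimmomatic to trim paired-end reads, Bowtie2 to map them to mm9, Picard to drop duplicate reads and MACS2 to call peaks, and then joined neighbouring peaks. Tool versions and the calling threshold are not given in the sources used here. The authors deposited a score per region and library, whose scale is not named. Tests used presence of a peak and the rank of the score within a library. Scores and their sums over promoters are given unscaled, and the difference in unscaled score was an alternative.

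Regions were placed on GENCODE M1 for NCBIM37, with coordinates counted from 1. The promoter region of a gene was the region over its TSS, otherwise over its promoter, with most libraries and then the highest mean percentile. Named regions were the promoter region, the 3 other regions with the highest mean DA percentile and all DA-only and 5-HT-only regions of each gene. Other regions and the sequences were picked after their values were seen. Likeness covered 5 genes per member. 1 planned marker set and 1 promoter sequence are not reported here. Group means were compared by two-sided exact permutation tests over 10 assignments of libraries, and paralogues by two-sided exact sign-flip tests over 32 sign patterns. The p-values are not adjusted. P-values measure the spread between independent sorts. The members, gene lists and sequence words were chosen with earlier results of these data known. Alternatives covered windows of 20 and 50 kb, assignment by nearest TSS, merging below 100 bp, other promoters, equal numbers of peaks, the upper 50% of scores, a wider promoter, other scalings, the sample number as a block, and each library left out.

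Python 3.11.15, NumPy 2.4.6, pandas 2.3.3 and matplotlib 3.10.9 were used, and the computations were tested on simulated data.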

Additional observations from a re-analysis of the deposited data

How the results depend on the processing

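The DA minus 5-HT difference in regions with a peak kept its sign in 38 of 39 alternatives. The exception was Foxa3 with regions assigned to the nearest protein-coding TSS, where no region was left and the difference was 0. Most alternatives kept the unequal numbers of peaks of the libraries, so a kept sign says little there. With the same number of peaks, the differences were 3.67, 3.83 and 0.667 for Foxa1, Foxa2 and Foxa3. Whether the groups overlapped did depend on the window. Within 20 kb, the differences were 5.83, 3.83 and 2.67 for Foxa1, Foxa2 and Foxa3. Foxa2 then had 5, 11 and 6 regions in DA libraries against 5 and 2, so the groups met. Foxa3 had 5, 6 and 6 against 4 and 2, without overlap. Within 50 kb, Foxa3 had 8, 11 and 10 against 7 and 3, again without overlap. The difference in promoter percentile kept its sign in 29 of 30, and the exception was Foxa2 with the same number of peaks per library, at -11.1. The exact permutation tests of this design cannot pass a threshold of 0.05 and say nothing about stability.

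DA-only regions within 20 kb numbered 2 for Foxa1, 0 for Foxa2 and 1 for Foxa3, and within 50 kb 5 for Foxa1 and 1 for Foxa2. Assignment to the nearest TSS, with no window, gave 8 for Foxa2 and 0 for Foxa3. The same number of peaks gave 3, 2 and 1. Leaving out a library gave 9 to 14 for Foxa1, 4 to 11 for Foxa2 and 2 to 10 for Foxa3.

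Foxa1 minus Foxa2 turned to -13.4 with the nearest TSS, -0.2 without promoters of other genes and -1.6 with the same number of peaks, and ranged from 0 to 2.0 without single libraries. Foxa1 minus Foxa3 turned to 2.4 within 20 kb, 2.8 within 50 kb, 12.4 with the nearest TSS, where Foxa3 had no region, and 5.8 without other promoters. Foxa2 minus Foxa3 turned to 1.2, 0.8, 25.8 and 6.0 in the same settings. Fewer regions by construction apart, the cause was not tested.

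Libraries share sample numbers but came from independent sorts, and only 2 numbers are in both groups. With the number as a replicate block, the differences in regions with a peak were 17.5, 13.5 and 9.0 for Foxa1, Foxa2 and Foxa3, and those in percentile 53.5, 34.0 and 2.91. Deviations from group means correlated at -0.0125 for number 1 and -0.0146 for number 2. The block changed no direction.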
